A study of Bos taurus with 8 samples.

Results

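AP-1 is a dimeric transcription factor built from FOS and JUN subunits, and the immediate early genes are those that growth factors, serum and stress switch on without new protein synthesis. The 10 genes described here are the FOS subunits FOS, FOSB, FOSL1 and FOSL2, the JUN subunits JUN, JUNB and JUND, the related factor ATF3, the zinc finger factor EGR1 and the nuclear immediate early protein IER2. They were taken by symbol from a table of 28709 genes, and all 10 were found. All 10 also passed the filter on low counts, which left 13557 genes for testing.

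Poly(A) RNA had been sequenced from BUTE cells, an immortalized, wild-type epithelial line derived from the uterus of 1 Holstein cow. Cells of both groups were kept for 24 h in medium without serum, steroids or phenol red and with insulin-like growth factor 1, a ligand that signals through phosphatidylinositol 3-kinase and MAP kinases. They then received the growth factor at 50 ng/ml with either the vehicle DMSO (4 libraries) or 10 µM progesterone (4 libraries) for 24 h. All cells therefore carried the same growth factor exposure, and the single time point lies long after the first hours in which immediate early transcripts usually peak. Whether the replicate libraries derive from separate dishes is not stated in the labels, and the p-values measure the spread between libraries alone, which may be technical. The column headings give the library names used below, DMSO R1, R3, R7 and R9 and progesterone R1, R2, R3 and R6.

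In the AP-1 family, FOS proteins cannot pair with each other and bind DNA only with a JUN partner, whereas JUN proteins can also pair among themselves. JUN, FOS and FOSB are strong activators. FOSL1 and FOSL2 lack the strong activation domain of FOS, and JUNB and JUND are often weaker activators that can restrain growth driven by JUN. Fos and Jun genes are controlled by serum response factor with its ternary complex partners, by MAP kinases, and by AP-1 itself. In the uterine epithelium, FOS and JUN respond to oestrogen, and progesterone and glucocorticoid receptors can interfere with AP-1 at its target genes.

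The libraries held between 23810861 and 32509786 estimated counts. DMSO R7 and R9 stood apart from the other 6 libraries, with correlations of log2 CPM across genes of 0.949 to 0.962 against 0.983 to 0.992 among the other 6 and 0.992 with each other. Fold changes of the 10 genes, and of the other genes for which a fold change is printed, are therefore given from all 8 libraries and again from 6, with only R1 and R3 as DMSO libraries. Of 7 epithelial markers, 6 passed the filter, and their summed level was 2820 to 3073 CPM with DMSO and 1739 to 2659 CPM with progesterone, nearly all of it KRT8 and KRT19. EPCAM was at or below 2.53 CPM in every library, KRT18 at or below 6.92 CPM, and CLDN4 at or below 0.102 CPM. All 8 stromal markers passed, with sums of 13269 to 20547 CPM with DMSO, where R7 and R9 were highest, and 12067 to 13261 CPM with progesterone. Smooth muscle markers (3 of 4 passed) summed to 719 to 945 and 686 to 922 CPM. Endothelial markers (1 of 4) did not exceed 5.87 CPM in sum and leucocyte markers (2 of 5) 13.9 CPM, with PTPRC at 0 in all libraries. Epithelial and stromal sums were thus without overlap between the groups, the stromal ones narrowly (13269 CPM in DMSO R1, 13261 CPM in progesterone R3). The levels of 16.2% of all genes tested were also without overlap. Of the epithelial markers tested, 3 had log2 fold changes above 0 and 3 below (1 and 5 without R7 and R9). KRT8 was at means of 2481 and 1739.5 CPM with DMSO and progesterone, and KRT19 at 446 and 472 CPM. Of the stromal markers, 2 were above 0 and 6 below (1 and 7 without R7 and R9). VIM was at 6360 and 6832 CPM and COL1A1 at 3956 and 1698 CPM. The part of these markers in the results on AP-1 genes was not tested.

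None of the 10 genes passed the threshold of an adjusted p under 0.05 between progesterone and DMSO (edgeR quasi-likelihood test, Benjamini-Hochberg adjustment over 13557 genes), where 2.65% of all genes passed. An unadjusted p under 0.05 was found for 4 of them, FOS, FOSB, FOSL1 and JUND, against 26.8% of all genes. DESeq2 called 3, FOS, FOSL1 and JUND, against 13.5% of all genes, and limma voom called 0, against 2.04%. Log2 fold changes were above 0 for 5 genes and below 0 for 5, with a median of 0.05 against -0.01 over all genes tested. The groups did not overlap for 1 gene, JUND, against 16.2% of all genes. Without DMSO R7 and R9 edgeR also called 0 of the 10, against 1.18% of 13764 genes, and 2 of them, FOSL2 and JUND, had an unadjusted p under 0.05, against 15.9%. Leaving out DMSO R1 alone brought 2 calls, FOS and FOSL1, in a fit that called 13% of all genes. Leaving out DMSO R3 alone brought 1, JUND, in a fit that called 5.78%, while leaving out each of the other 6 libraries alone brought 0. CPM below are counts scaled to library size with TMM factors, and means are given with SD over the 4 libraries of a group.

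**Figure D1:**
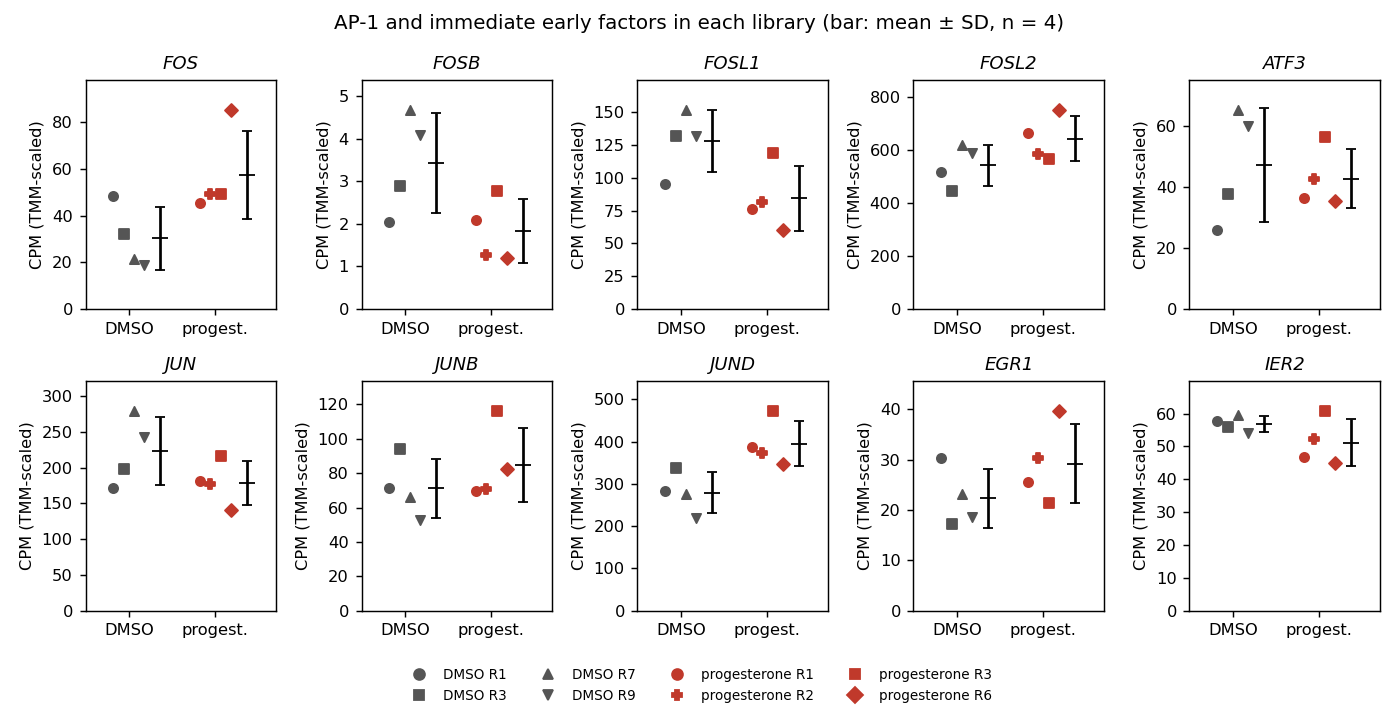
Each panel plots the TMM-scaled CPM of 1 gene in the 4 DMSO libraries (grey) and the 4 progesterone libraries (red), with symbols for single libraries and a bar for the mean ± SD. JUND is the gene whose groups do not overlap (219 to 338 against 347 to 472 CPM), and progesterone R6 (diamond) lies at an end of its group in 9 of the 10 panels, as it does for 56.2% of all genes.

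FOS (Entrez Gene 280795, chromosome 10), the founding subunit of the family, was at 48.5, 32.1, 21.4 and 19.0 CPM in DMSO R1, R3, R7 and R9. With progesterone it was at 45.6, 49.4, 49.2 and 85.4 CPM in R1, R2, R3 and R6. DMSO R1 lay inside the range of the progesterone libraries, the other 3 DMSO libraries lay below it, and R6 stood well above all others. The means were 30.3 ± 13.4 and 57.4 ± 18.7 CPM, a log2 fold change of 0.92 ± 0.32 (SE; 95% interval 0.20 to 1.65; edgeR adjusted p = 0.119). Without DMSO R7 and R9 the log2 fold change was 0.52 ± 0.29 (interval -0.14 to 1.19, edgeR adjusted p = 0.431). Without DMSO R1 it was 1.25 and passed (edgeR adjusted p = 0.0270), and without progesterone R6 it was 0.67 (0.245).

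FOSB (540819, chromosome 18), a strong activator that is usually transient, was at 2.05, 2.90, 4.68 and 4.08 CPM in DMSO R1, R3, R7 and R9 and at 2.08, 1.27, 2.77 and 1.2 CPM in progesterone R1, R2, R3 and R6. The values of DMSO R1 and R3 lay among those of the progesterone libraries or just above them, and R7 and R9 lay above all. The log2 fold change was -0.90 ± 0.35 (edgeR adjusted p = 0.140), and -0.41 ± 0.35 (0.616) when R7 and R9 were left out.

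FOSL1 (531389, chromosome 29), which encodes FRA-1, was at 95.4, 132, 152 and 132 CPM in the DMSO libraries, in the same order. With progesterone it was at 76.6, 81.4, 119 and 60.5 CPM. Progesterone R3 exceeded DMSO R1, and the other 3 progesterone libraries lay below every DMSO library. The means were 128 ± 23.7 and 84.3 ± 24.7 CPM, a log2 fold change of -0.60 ± 0.20 (interval -1.06 to -0.15, edgeR adjusted p = 0.109). Without R7 and R9 it was -0.42 ± 0.24 (interval -0.98 to 0.14, edgeR adjusted p = 0.452). Without DMSO R1 it was -0.72 and passed (edgeR adjusted p = 0.0430).

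FOSL2 (509889, chromosome 11), which encodes FRA-2, was at 516, 447, 618 and 587 CPM in DMSO R1, R3, R7 and R9. It was at 665, 585, 567 and 752 CPM in progesterone R1, R2, R3 and R6. Here R7 and R9 resembled the progesterone libraries, and R1 and R3 were the lowest of the 8. The log2 fold change was accordingly smaller with all libraries (0.24 ± 0.13, interval -0.04 to 0.53, edgeR adjusted p = 0.248) than without R7 and R9 (0.43 ± 0.13, interval 0.14 to 0.72, edgeR adjusted p = 0.147). It passed in neither.

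JUND (517192, chromosome 7), the subunit often present in resting cells, was at 284, 338, 277 and 219 CPM in DMSO R1, R3, R7 and R9. It was at 388, 374, 472 and 347 CPM in progesterone R1, R2, R3 and R6. Every progesterone library exceeded every DMSO library, although R6 with progesterone and R3 with DMSO were close. The means were 279 ± 48.5 and 395 ± 53.9 CPM, a 1.41-fold difference (log2 fold change 0.50 ± 0.14 SE, interval 0.19 to 0.81, edgeR adjusted p = 0.0741). Without R7 and R9 it was 0.36 ± 0.13 (interval 0.07 to 0.64, edgeR adjusted p = 0.210), and without DMSO R3 it was 0.60 and passed (0.0408). In bulk RNA a change in the level per cell and a change in the share of cells that hold the transcript cannot be told apart.

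JUN (280831, chromosome 3), the partner with the strongest activating role, was at 172, 198, 279 and 243 CPM in the DMSO libraries and at 181, 177, 216 and 141 CPM in the progesterone libraries. R7 and R9 were the 2 highest and progesterone R6 the lowest, with the other 5 between 172 and 216 CPM. The log2 fold change was -0.32 ± 0.17 (edgeR adjusted p = 0.241), which moved to -0.04 ± 0.14 when R7 and R9 were left out, with an interval of -0.36 to 0.28 (edgeR adjusted p = 0.930). JUNB (514246, chromosome 7), which can antagonize JUN, was at 71.6, 94.2, 65.9 and 53.0 CPM with DMSO and at 69.7, 70.8, 116 and 82.6 CPM with progesterone. The groups overlapped widely, and the 2 libraries named R3 were the highest. Its log2 fold change was 0.25 ± 0.20 (edgeR adjusted p = 0.439) and 0.04 ± 0.21 (0.944) without R7 and R9.

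The 3 JUN genes have no introns, so their spans in the reference gene table (2048 bases for JUN, 1820 for JUNB and 1753 for JUND) could serve as transcript lengths and their levels could be compared per kilobase. JUND was highest in every library, at 159 ± 27.7 CPM per kilobase with DMSO and 225 ± 30.7 with progesterone. JUN followed at 109 ± 23.2 and 87.3 ± 14.9, and JUNB was lowest of the 3 in every library at 39.1 ± 9.44 and 46.5 ± 11.8 CPM per kilobase. Of the length-corrected sum of the 3, JUND took 56.8%, 56.5%, 47.8% and 45.8% in DMSO R1, R3, R7 and R9 and 63.6%, 62.9%, 61.4% and 63.4% in progesterone R1, R2, R3 and R6. The share of JUN was 28.4% to 43.5% with DMSO and 22.0% to 25.6% with progesterone. Both shares were without overlap between the groups, and that of JUNB overlapped (10.7% to 15.2% and 11% to 14.5%). The shares are parts of the same sum, so those of JUND and JUN are not separate results. Levels were without overlap for 16.2% of all genes tested. Ratios within a library were so for 15.3% of all pairs of genes with a count in every library. Levels of the FOS genes, ATF3 and EGR1 were not compared with each other, because no transcript lengths were used for them.

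**Figure D2:**
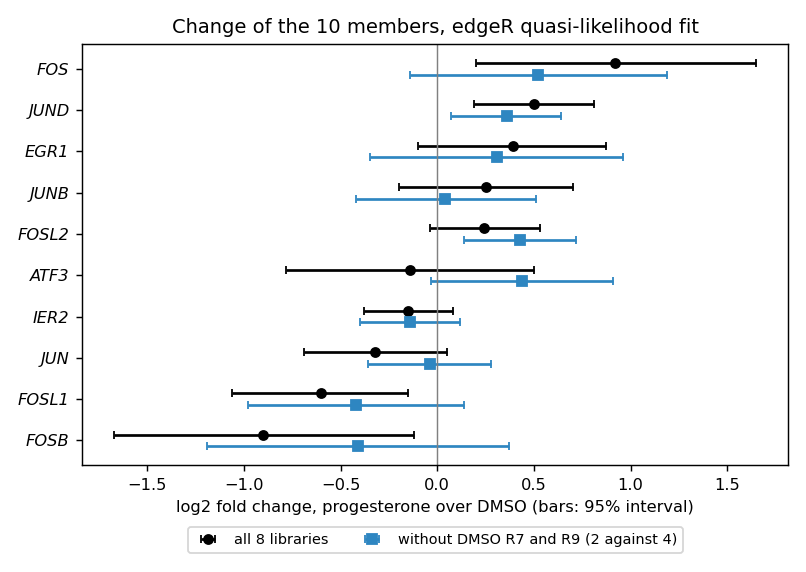
Points give the log2 fold change of progesterone over DMSO for each of the 10 genes, with 95% intervals, from all 8 libraries (black) and without DMSO R7 and R9 (blue). The intervals of FOS, JUND, FOSL1 and FOSB exclude 0 with all libraries, those of JUND and FOSL2 do without R7 and R9, and ATF3 changes side (-0.14 and 0.44).

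ATF3 (515266, chromosome 16), a stress-induced factor that pairs with JUN proteins, was at 25.8, 37.8, 65.3 and 59.9 CPM in DMSO R1, R3, R7 and R9. It was at 36.4, 42.7, 56.5 and 35.3 CPM in progesterone R1, R2, R3 and R6. All progesterone values lay between those of DMSO R1 and of DMSO R9. The sign of the difference depended on R7 and R9, with a log2 fold change of -0.14 ± 0.28 (interval -0.78 to 0.50, edgeR adjusted p = 0.769) with all libraries and 0.44 ± 0.21 (interval -0.03 to 0.91, 0.352) without them.

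EGR1 (407125, chromosome 7), a factor of the early growth factor response, was at 30.3, 17.3, 23.1 and 18.6 CPM with DMSO and at 25.6, 30.4, 21.3 and 39.6 CPM with progesterone. Progesterone R6 was highest, and the other 7 libraries were interleaved. The log2 fold change was 0.39 ± 0.22 (edgeR adjusted p = 0.278) and 0.31 ± 0.28 (0.651) without R7 and R9. IER2 (525380, chromosome 7), a regulator of transcription induced with FOS, varied least, at 57.8, 55.9, 59.6 and 54.0 CPM with DMSO and 46.7, 52.4, 60.7 and 44.8 CPM with progesterone. Its 4 DMSO libraries, R7 and R9 included, lay within 54.0 to 59.6 CPM, and its log2 fold change was -0.15 ± 0.10 (interval -0.38 to 0.08, edgeR adjusted p = 0.369). Leaving out R7 and R9 gave -0.14 ± 0.12, with an interval of -0.40 to 0.12 (edgeR adjusted p = 0.614).

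Ratios between 2 of the genes within a library do not depend on scaling, and all 45 pairs were computed as a description. In 7 of the 45 pairs the progesterone and DMSO libraries did not overlap, as was the case for 15.3% of all pairs among the 13527 tested genes with a count in every library, so the number of such pairs does not set these genes apart. JUND took part in 4 of the 7 (with JUN, FOSL1, FOSB and IER2) and FOSL1 in 3 (with JUND, JUNB and ATF3), and the remaining pair was FOSB with ATF3. The ratio of JUND to JUN counts was 1.65, 1.7, 0.994 and 0.900 in DMSO R1, R3, R7 and R9. It was 2.14, 2.11, 2.19 and 2.46 in progesterone R1, R2, R3 and R6, above both DMSO R1 and R3 and the lower R7 and R9. The ratio of FOSL1 to JUND was 0.336, 0.391, 0.549 and 0.602 with DMSO and 0.197, 0.218, 0.252 and 0.174 with progesterone. The ratio of FOSL1 to ATF3 was 3.69, 3.50, 2.33 and 2.20 with DMSO and 2.10, 1.91, 2.11 and 1.71 with progesterone, and here R7 and R9 were the DMSO libraries nearest to progesterone. The ratio of FOS to FOSL1 overlapped, at 0.508, 0.243, 0.140 and 0.144 with DMSO and 0.596, 0.607, 0.414 and 1.41 with progesterone.

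**Figure D3:**
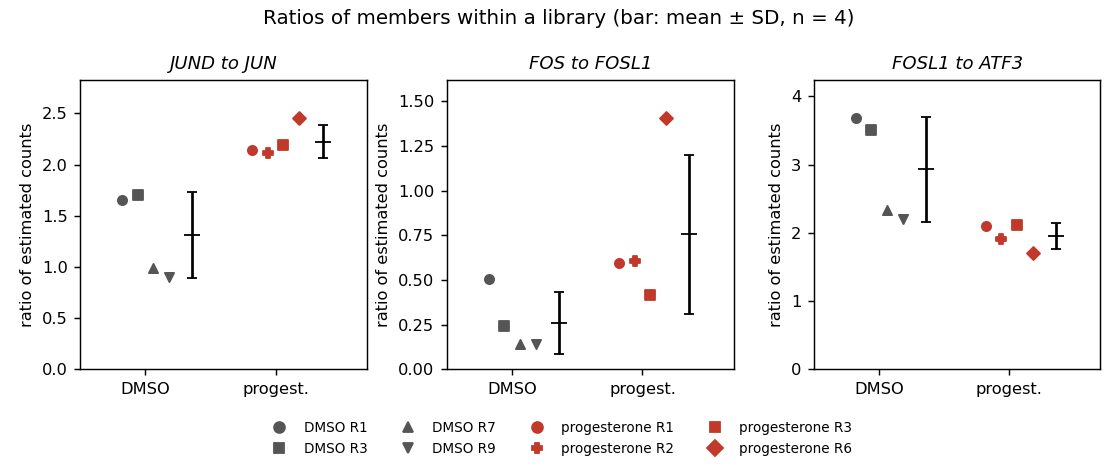
Each panel plots the ratio of the estimated counts of 2 genes in every library, with a bar for the mean ± SD of each group. JUND to JUN is above 2.1 in all progesterone libraries and at or below 1.7 with DMSO, and FOSL1 to ATF3 is lower with progesterone. FOS to FOSL1 overlaps, with DMSO R1 (0.508) above progesterone R3 (0.414).

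Within the groups, 2 sets of libraries held most of the extreme values. DMSO R7 and R9 were together the 2 highest (FOSB, JUN, ATF3) or the 2 lowest (FOS, JUNB, JUND) of the 8 for 6 of the 10 genes, which was also the case for 49.2% of all genes tested. In these 2 libraries FOS was at 0.502 and JUNB at 0.718 times the mean of DMSO R1 and R3, whereas ATF3 was at 1.97, FOSB at 1.77 and JUN at 1.41 times that mean. Progesterone R6 was the highest (FOS, FOSL2, EGR1) or lowest (FOSB, FOSL1, JUN, IER2) of the 8 for 7 of the 10 genes, against 29.0% of all genes. R6 was thus high for FOS and EGR1 and low for FOSL1 and JUN in the same library. The summed epithelial, stromal and smooth muscle markers were all lowest in progesterone R6, at 1739, 12067 and 686 CPM. The endothelial and leucocyte sums were highest in R6, at 5.87 and 13.9 CPM. The part of this in the values was not tested.

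The genes most like each member were sought by the root mean square distance of log2 CPM profiles, centred on their own means over the 8 libraries, for the 7 members that span over 1 log2 unit. All 8 libraries entered, R7 and R9 included. The nearest were ETFBKMT, RHBDL1 and CA2 for FOS (distances 0.12, 0.17 and 0.18), ANGPTL4, VEGFC and GADD45B for FOSB (0.19, 0.24 and 0.26) and DHODH, RUNDC3A and NCLN for FOSL1 (0.12, 0.13 and 0.14). They were ECI1, SYN1 and PRX for JUNB (0.07, 0.09 and 0.09), SH3BP2, PCOLCE and SHB for JUND (0.07, 0.07 and 0.08), SH3D21, KMT2D and SOX6 for EGR1 (0.13, 0.15 and 0.16) and BIRC3, MARCH3 and YOD1 for ATF3 (0.15, 0.16 and 0.17). Among these 21 genes 1 is itself a stress and early response gene of the lists used here, GADD45B, which was at means of 49.4 and 33.4 CPM in DMSO and progesterone libraries (log2 fold change -0.56, edgeR adjusted p = 0.183; when R7 and R9 were left out, -0.07 and 0.904).

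The genes around AP-1 were described from 6 lists with 121 genes, of which 109 were tested. Of these, 5 rose, 2 fell and 102 did not pass, with a median log2 fold change of 0.00, where 2.65% of all genes passed. Without DMSO R7 and R9, 2 rose, 2 fell and 105 did not pass, where 1.18% of all genes passed. Leaving out 1 library at a time gave 22 calls without DMSO R1 and 10 without DMSO R3. Those 2 fits called 13% and 5.78% of all genes. Leaving out any of the other 6 gave 1 or 2 calls, in fits that called 0.306% to 0.6% of all genes.

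Of the 7 calls, 4 were among other immediate early genes, the list with the most genes tested. Of 29 tested, 3 rose, 1 fell and 25 did not pass (median -0.09), where 2.65% of all genes passed. When R7 and R9 were left out, 2 rose and 1 fell (median 0.04), against 1.18% of all genes. ZFP36 (282127, chromosome 18), which encodes the RNA-binding protein tristetraprolin that hastens decay of AU-rich messages such as those of cytokines and FOS, was at 13.6, 15.2, 12.9 and 11.3 CPM in DMSO R1, R3, R7 and R9. It was at 23.6, 22.9, 27.7 and 24.4 CPM in progesterone R1, R2, R3 and R6. These values lay well apart by group, and R7 and R9 did not stand out. ZFP36 rose 1.86-fold (log2 fold change 0.89 ± 0.12, edgeR adjusted p = 0.00922), also passed when R7 and R9 were left out (0.79, edgeR adjusted p = 0.0139), and passed whichever single library was left out.

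Its relative ZFP36L2 rose 1.55-fold, from 162 ± 32.8 to 252 ± 9.47 CPM (0.63 on the log2 scale, edgeR adjusted p = 0.0445). The rise was smaller when R7 and R9 were left out (0.46, edgeR adjusted p = 0.0446). The orphan nuclear receptor NR4A1 rose 1.63-fold, from 42.5 ± 4.10 to 69.4 ± 13.4 CPM (edgeR adjusted p = 0.0327). On the log2 scale this was 0.71, and 0.76 when R7 and R9 were left out (0.0587). RHOB, a small GTPase of endosomes that is induced early by growth factors and stress, fell 1.78-fold. It was at 321, 379, 436 and 363 CPM in the DMSO libraries and 212, 206, 246 and 178 CPM in the progesterone libraries. No library of either group came near the other group (edgeR adjusted p = 0.0146, and 0.0225 without R7 and R9). Leaving out 1 library, RHOB lost the call without progesterone R1 or R2. NR4A1 lost it without DMSO R7 or R9 or progesterone R2, R3 or R6, and ZFP36L2 lost it without DMSO R7 or R9 or any progesterone library.

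**Figure D4:**
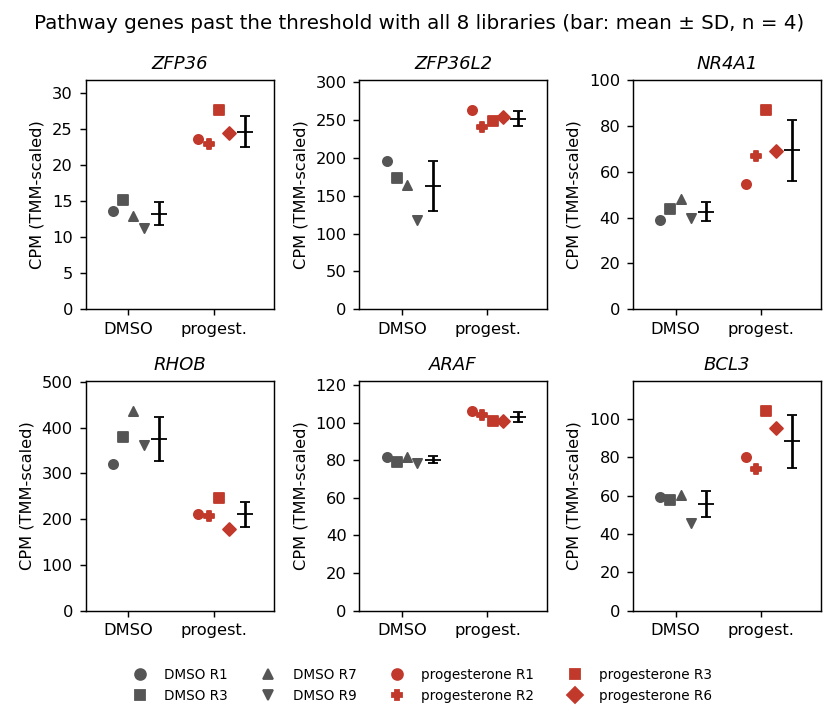
Panels plot the TMM-scaled CPM in each library, with the mean ± SD of each group, for 6 genes of the lists that passed the threshold with all 8 libraries. In each panel the DMSO and progesterone libraries do not overlap, as is the case for 16.2% of all genes. The genes were chosen by the test on these same libraries, so the lack of overlap is no separate result. RHOB is the gene that is lower with progesterone.

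Of 20 other bZIP factors that can pair or compete with AP-1 subunits, none passed in edgeR with all libraries or without R7 and R9. Before adjustment, p was under 0.05 for 3 and 4 of them. DESeq2 called 2 and limma voom 0 with all libraries. The matching edgeR shares over all genes were 2.65% and 1.18%, and 26.8% and 15.9% before adjustment. Those of DESeq2 and limma voom were 13.5% and 2.04%. The smallest p among these 20 was that of CEBPB (log2 fold change 0.86 ± 0.24, edgeR adjusted p = 0.0770). Its means were 23.8 ± 7.55 and 43.2 ± 9.74 CPM. ATF1 came next (log2 fold change 0.28 ± 0.10, edgeR adjusted p = 0.109). When R7 and R9 were left out the values were 0.58 for CEBPB (edgeR adjusted p = 0.185) and 0.21 for ATF1 (0.366). Among 9 genes of serum response factor and its partners and targets none passed in edgeR with all libraries. Of these 9, 4 had an unadjusted p under 0.05, against 26.8% of all genes. DESeq2 called 1 and limma voom 0, against 13.5% and 2.04% of all genes. ELK1, a ternary complex factor and MAP kinase substrate, was at 60.9 ± 4.09 and 77.5 ± 5.60 CPM (log2 fold change 0.35 ± 0.09, edgeR adjusted p = 0.0611), and the coactivator FHL2 had -0.36 ± 0.15 (0.152). Leaving out R7 and R9 gave 0.34 for ELK1 (edgeR adjusted p = 0.112) and -0.14 for FHL2 (0.663).

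Of 20 genes on the MAP kinase route to AP-1, 1 rose and 19 did not pass (median 0.11), where 2.65% of all genes passed. When R7 and R9 were left out, 0 passed in edgeR (median 0.08), against 1.18% of all genes. An unadjusted p under 0.05 was then found for 2, against 15.9% of all genes. ARAF, a RAF kinase, rose 1.28-fold, with means of 80.2 ± 1.81 and 103 ± 2.43 CPM (0.36 ± 0.07 on the log2 scale, edgeR adjusted p = 0.0303). Leaving out R7 and R9 gave 0.37 (edgeR adjusted p = 0.0611). Of 14 genes of JUN stability and of cofactors, 1 rose and 13 did not pass (median 0.09), against the same 2.65% of all genes. When R7 and R9 were left out, 0 passed in edgeR (median 0.10) and 4 had an unadjusted p under 0.05. Of all genes, 1.18% and 15.9% did so. BCL3, a nuclear IκB protein that can coactivate AP-1, rose 1.58-fold from 55.8 ± 6.90 to 88.2 ± 13.8 CPM (edgeR adjusted p = 0.0331). The log2 values were 0.66 and, when R7 and R9 were left out, 0.60 (0.0614).

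Of 18 genes often described as AP-1 targets, 1 fell and 17 did not pass, with a median of -0.38 and, without R7 and R9, -0.04. The medians over all genes were -0.01 and 0.01. With all libraries 2.65% of all genes passed. DESeq2 called 4 of the 18 and limma voom 1, against 13.5% and 2.04% of all genes. The list held 26 genes. MMP1, MMP3, MMP9, MMP13, IL6, AREG and IVL did not pass the filter, at or below 0.719 CPM in every library. ARAF and BCL3 each lost the call in 6 of the 8 fits that left out 1 library, those without DMSO R7 or R9 or any progesterone library. No list was tested as a set.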

How the data were processed

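Sequencing libraries were stranded and poly(A)-selected, per the labels' protocols. The deposited table holds estimated counts per gene. Salmon 1.4.0, bcl2fastq and the genome build ARS-UCD1.2 are listed in the submitters' processing notes; how transcripts were summed to genes and what the length normalization in the table's name was are not given in the sources used here. Of deposited values between 0.5 and 1.5, 83.4% lay within 0.1 of 1, so 1 fragment counts about 1 whatever the gene.

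Column names give the group but not the sample. Estimated counts were rounded, filtered with filterByExpr, scaled by TMM and tested with edgeR 4.0.16 (quasi-likelihood, robust, two-sided, R 4.3.3), with group as the only term and Benjamini-Hochberg adjustment over all genes tested. Standard errors are the log2 fold change divided by the square root of F. Replicate pairs differed by more than sampling noise (chi-square per degree of freedom 14.9 to 137). The test was checked on simulated data in which 200 of 13557 genes were changed. It called 64% of the 2-fold and 38% of the 1.5-fold changes, with 6 false calls, so real changes of these sizes can fail to pass. Simulated counts varied independently from gene to gene, without the shift of DMSO R7 and R9 that many genes share. These figures therefore need not hold for the real libraries. Alternatives were other scalings and filters, DESeq2 1.42.0, limma voom 3.58.1, counts left unrounded, estimation without the robust option, a threshold of 0.01, leaving out libraries, a term for DMSO R7 and R9, and the column number as a block.

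The members, lists and alternatives were chosen with earlier results of these data known. Named from each list are the genes that passed, up to 6, or otherwise the 2 with the smallest p, and for members spanning over 1 log2 unit the 3 nearest profiles among genes of at least 1 CPM. List genes were matched by symbol, and 4 through the reference gene table (ARS-UCD2.0); MMP10 was not matched and is not analysed here. Of the list genes that passed, 1 is counted but not reported here.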

Additional observations from a re-analysis of the deposited data

Results flagged for a closer look

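FOS in progesterone R6, at 85.4 CPM, lay far from the other 3 progesterone libraries, with a gap to the nearest of them of 0.904 of the group's whole range. It was the only value so far from its group among the 20 sets examined (10 genes in 2 groups), and chance sets apart about 1 in 20 such groups. The log2 fold change of FOS was 0.92 with this library and 0.67 without it.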

How the results depend on the processing

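The count of genes called over all genes was 359, and 1830 with DESeq2, 27 at a threshold of 0.01, 162 without DMSO R7 and R9, and 42 to 1782 when 1 library was left out. For the 10 members the count of 0 became 3 with DESeq2 and 0 to 2 when 1 library was left out. For the genes of the 6 lists the count of 7 became 22 with DESeq2, 1 at a threshold of 0.01, 4 without R7 and R9, and 1 to 22 when 1 library was left out. Over all genes the shares called in these settings were 13.5%, 0.199%, 1.18% and 0.306% to 13%, against 2.65%. The cause of these differences was not tested. Only ATF3 turned its sign outside the block fit: its log2 fold change of -0.14 was between -0.34 and 0.05 when 1 library was left out (0.05 without DMSO R7), 0.44 without R7 and R9 and 0.43 with a model term for them. The other scalings, filters, rounding, robust setting and limma voom left the members' calls at 0. The columns of the 2 groups share 2 numbers, and nothing in the labels ties a number to a culture. Deviations from the group means correlated at 0.23 and 0.21 for these same-numbered libraries. With the column number as a replicate block, which leaves 1 residual degree of freedom, 2531 genes (18.7%), 4 members (FOSL1, FOSL2, JUND and ATF3) and 37 list genes were called. The log2 fold changes turned to 0.54 for ATF3 and 0.10 for JUN, against -0.14 and -0.32, and moved from 0.92 to 0.25 for FOS, from -0.90 to -0.02 for FOSB, from 0.39 to 0.01 for EGR1 and from -0.60 to -0.23 for FOSL1. Levels with another transcript length were not run, because the reference gives 1 length a gene. With 4 libraries a group and their spread, the 95% intervals of FOS, FOSB and ATF3 are over 1 log2 unit wide. This limits what can be said of these 3 genes, and the limit is not theirs alone. The interval of EGR1, for example, was -0.10 to 0.87, and -0.35 to 0.96 without DMSO R7 and R9.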

Other observations

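Of 9 heat shock genes tested, 1 fell and 8 did not pass (median log2 fold change -0.15), where 2.65% of all genes passed. When DMSO R7 and R9 were left out, 0 passed in edgeR, 3 had an unadjusted p under 0.05 and the median was -0.04. Of all genes, 1.18% then passed and 15.9% had an unadjusted p under 0.05. HSP90AA1, the inducible cytosolic HSP90 that also holds steroid receptors ready for ligand, was 1.37-fold lower with progesterone (-0.45 ± 0.10 on the log2 scale, edgeR adjusted p = 0.0450). The value was -0.33 when DMSO R7 and R9 were left out, short of the threshold (edgeR adjusted p = 0.144), and it lost the call in 6 of the 8 fits that left out 1 library, those without DMSO R7 or R9 or any progesterone library. The stress-inducible HSPA1A was between 516 and 732 CPM in all 8 libraries (log2 fold change -0.06, edgeR adjusted p = 0.743; when R7 and R9 were left out, -0.04 and 0.922); it was chosen after its values were seen, and reads shared with a near-identical copy make its count uncertain.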
